A study of Mus musculus with 12 samples.

Results

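The genes described here are those of the hepatic methionine cycle and the one-carbon and transsulfuration steps tied to it. The list holds 9 symbols (Mat1a, Gnmt, Ahcy, Bhmt, Cbs, Cth, Pemt, Mthfd1 and Shmt1). Each was read through the array row that the platform annotation assigns to that gene alone, and Bhmt, which has 3 such rows, through the brightest of them on average. By this rule 8 of the 9 were measured, out of 19938 genes in the table. All 3 rows that carry Ahcy, the hydrolase of S-adenosylhomocysteine, also name another gene, so Ahcy was not analysed here.

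Liver RNA of 12 mice, all 7 weeks old, was measured on one-colour Affymetrix arrays, with 1 array per animal and 4 animals per group. The transgenic group carried a constitutively active FoxO3, a forkhead transcription factor normally restrained by insulin signalling, under the LAP promoter, which is commonly used to direct transgenes to hepatocytes. A second transgenic group was given metformin, a glucose-lowering drug, and the control group was wild type. All groups shared a mixed C57BL/6 and NMRI origin with at least 4 backcrosses to C57BL/6. The labels give neither the metformin dose, route and duration nor the sex of the animals, and no metformin-treated wild type animals are among the samples. Values are log2 signals, so a difference of 1 is a doubling, and levels of different genes are not compared, since each is read by its own probes.

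In the methionine cycle, methionine adenosyltransferase (Mat1a in adult hepatocytes) makes S-adenosylmethionine, the methyl donor for most cellular methylation. Methyltransferases such as glycine N-methyltransferase (Gnmt) and phosphatidylethanolamine N-methyltransferase (Pemt) spend it and leave S-adenosylhomocysteine, which Ahcy splits to homocysteine. Homocysteine is either methylated back to methionine, with betaine as the donor through Bhmt or with a folate-bound methyl group through methionine synthase, or it is committed to cysteine through cystathionine beta-synthase (Cbs) and cystathionine gamma-lyase (Cth). Shmt1 and Mthfd1 load and interconvert the folate-bound one-carbon units in the cytosol. The liver carries most of the body's methionine metabolism, and Bhmt is among its most abundant transcripts.

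Promoter sequences are shown for the members with the largest differences between groups, because FoxO proteins bind a short forkhead motif and its occurrence in these windows can be read directly. RefSeq promoters of build GRCm38.p6 were matched by symbol for 7 of the 9 members, with 8 windows in all, and the 250 bases upstream of each start were searched on both strands. The forkhead motif GTAAACA was in 0 of the 8 windows and in 3.17% of all 32851 promoter windows of that length. CAAAACA, the insulin response motif, was in 1 of 8, that of Ahcy, and in 5.56% of all windows. The 5 letters AAACA that both motifs contain, searched afterwards, were in 4 of 8 and in 46.4% of all. The windows printed below all lie on the minus strand and are written 5′ to 3′ along it, with matches to AAACA, or to its reverse complement, in capitals. They are Bhmt at chr13:93637759-93638008, its neighbour and paralog Bhmt2 at chr13:93674303-93674552, Shmt1 at chr11:60811266-60811515, and 2 annotated starts of Pemt at chr11:60037006-60037255 and chr11:60040189-60040438.
Bhmt: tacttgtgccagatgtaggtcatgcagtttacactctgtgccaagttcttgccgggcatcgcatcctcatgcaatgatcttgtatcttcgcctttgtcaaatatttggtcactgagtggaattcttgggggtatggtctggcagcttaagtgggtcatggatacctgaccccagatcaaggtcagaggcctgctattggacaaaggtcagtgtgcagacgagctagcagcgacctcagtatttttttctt
Bhmt2: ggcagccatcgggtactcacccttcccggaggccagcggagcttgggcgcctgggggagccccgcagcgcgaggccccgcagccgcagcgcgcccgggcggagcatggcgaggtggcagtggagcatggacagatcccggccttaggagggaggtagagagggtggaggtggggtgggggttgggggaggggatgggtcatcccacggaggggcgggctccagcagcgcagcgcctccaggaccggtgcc
Shmt1: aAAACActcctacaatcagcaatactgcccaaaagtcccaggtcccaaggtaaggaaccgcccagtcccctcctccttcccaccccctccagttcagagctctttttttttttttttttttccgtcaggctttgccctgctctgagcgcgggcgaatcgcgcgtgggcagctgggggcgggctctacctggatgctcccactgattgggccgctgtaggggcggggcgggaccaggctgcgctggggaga
Pemt, start at the lower coordinate: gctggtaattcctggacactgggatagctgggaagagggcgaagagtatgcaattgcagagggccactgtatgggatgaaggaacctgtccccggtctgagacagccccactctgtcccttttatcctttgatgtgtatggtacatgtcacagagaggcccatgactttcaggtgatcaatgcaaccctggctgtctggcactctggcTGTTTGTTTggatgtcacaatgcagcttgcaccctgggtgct
Pemt, start at the higher coordinate: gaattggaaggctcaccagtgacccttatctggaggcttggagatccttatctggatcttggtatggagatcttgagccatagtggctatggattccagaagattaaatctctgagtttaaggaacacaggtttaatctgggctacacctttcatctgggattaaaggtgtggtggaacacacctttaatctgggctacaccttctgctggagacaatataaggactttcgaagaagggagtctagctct
Capitals mark 1 match in the Shmt1 window, at its far upstream end, and 2 overlapping matches in the lower Pemt window. The Bhmt and Bhmt2 windows have none and differ in composition, with a GC content of 48.0% for Bhmt and 74.0% for Bhmt2. These matches describe the letters of the windows, and no binding was measured.

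Some facts of the arrays touch every comparison of these genes. Xist, transcribed from the inactive X chromosome, read 4.24 to 4.70 on the 4 transgenic arrays and 10.57 to 11.95 on the 4 metformin-treated arrays. In wild type, 2 of 4 arrays (replicates 1 and 4) had Xist signal and the other two had Y-linked signal. Groups and sex-chromosome signal are therefore entangled, and results are also given from a fit with Xist minus Y-linked signal as a covariate, which only the wild type arrays inform well. Transgenic replicate 2 correlated with wild type arrays at a mean r of 0.984 and with its own group at 0.968. Of 11 Kupffer cell and macrophage markers, 4 (C1qa, Cd5l, Clec4f and Marco) were higher in transgenic than in wild type livers, and 4 (C1qa, Cd5l, Cd68 and Marco) were lower with metformin. The mean log2 level of these 11 was 8.66 to 9.41 in wild type, 9.24 to 10.05 in transgenic and 8.50 to 9.42 in metformin-treated livers. The 8 measured hepatocyte markers averaged 13.25 to 13.26, 13.11 to 13.23 and 13.19 to 13.29, and 1 of them, Ttr, was lower in transgenic than in wild type livers (-0.44) and higher with metformin (0.40). Among 8 stellate cell and fibroblast markers, Dcn was higher (0.36, adjusted p = 0.0469) and Col1a1 lower (-0.34, adjusted p = 0.0381) in transgenic than in wild type livers, and Des was lower with metformin (-0.56, adjusted p = 0.00547). Of the 8 liver endothelial, 3 cholangiocyte and 5 lymphocyte markers tested, 0 were called in either comparison. The part of sex-chromosome signal and of these cell markers in the results below was not tested beyond the fits given, and in bulk liver fewer hepatocytes cannot be told apart from less RNA per hepatocyte.

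The first comparison asked how the active FoxO3 transgene bears on these transcripts. Pemt, Shmt1, Bhmt and Cth were lower in transgenic than in wild type livers, by 1.51-fold to 1.70-fold, while Cbs, Gnmt, Mthfd1 and Mat1a did not pass the test (limma, adjusted p below 0.05 over 14953 genes). Thus 4 of 8 measured members fell and 0 rose, against 6.15% of all tested genes called lower and 7.97% called higher. The median difference of the 8 was -0.58, against -0.01 for all genes. The 4 that fell spread over the pathway: a methyl user, a betaine-dependent and a folate enzyme, and the last transsulfuration step. The count fell to 1 without transgenic replicate 3 or 4 or wild type replicate 1, 2 or 4, and to 2 without transgenic replicate 1. Bhmt and Cth were not called after median centring, nor Bhmt and Shmt1 in a fit of only the 8 arrays compared.

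The second comparison set metformin-treated against untreated transgenic livers, and the same 4 transcripts were higher in the treated animals. Shmt1 rose by 2.14-fold over untreated transgenic livers, Bhmt by 1.72-fold, Pemt by 1.69-fold and Cth by 1.49-fold, and Mat1a, which had not differed from wild type, rose by 1.22-fold. In all, 5 of 8 members were called higher and 0 lower, where 10.6% of all tested genes were called higher and 14.1% lower. The median was 0.43, against -0.01 for all genes. Both comparisons use the same transgenic arrays, so a low transgenic value enters both. Without transgenic replicate 3 the count was 3, and in a fit of only the 8 arrays compared Bhmt and Cth were not called. The plot of member levels shows each animal.

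**Figure D1:**
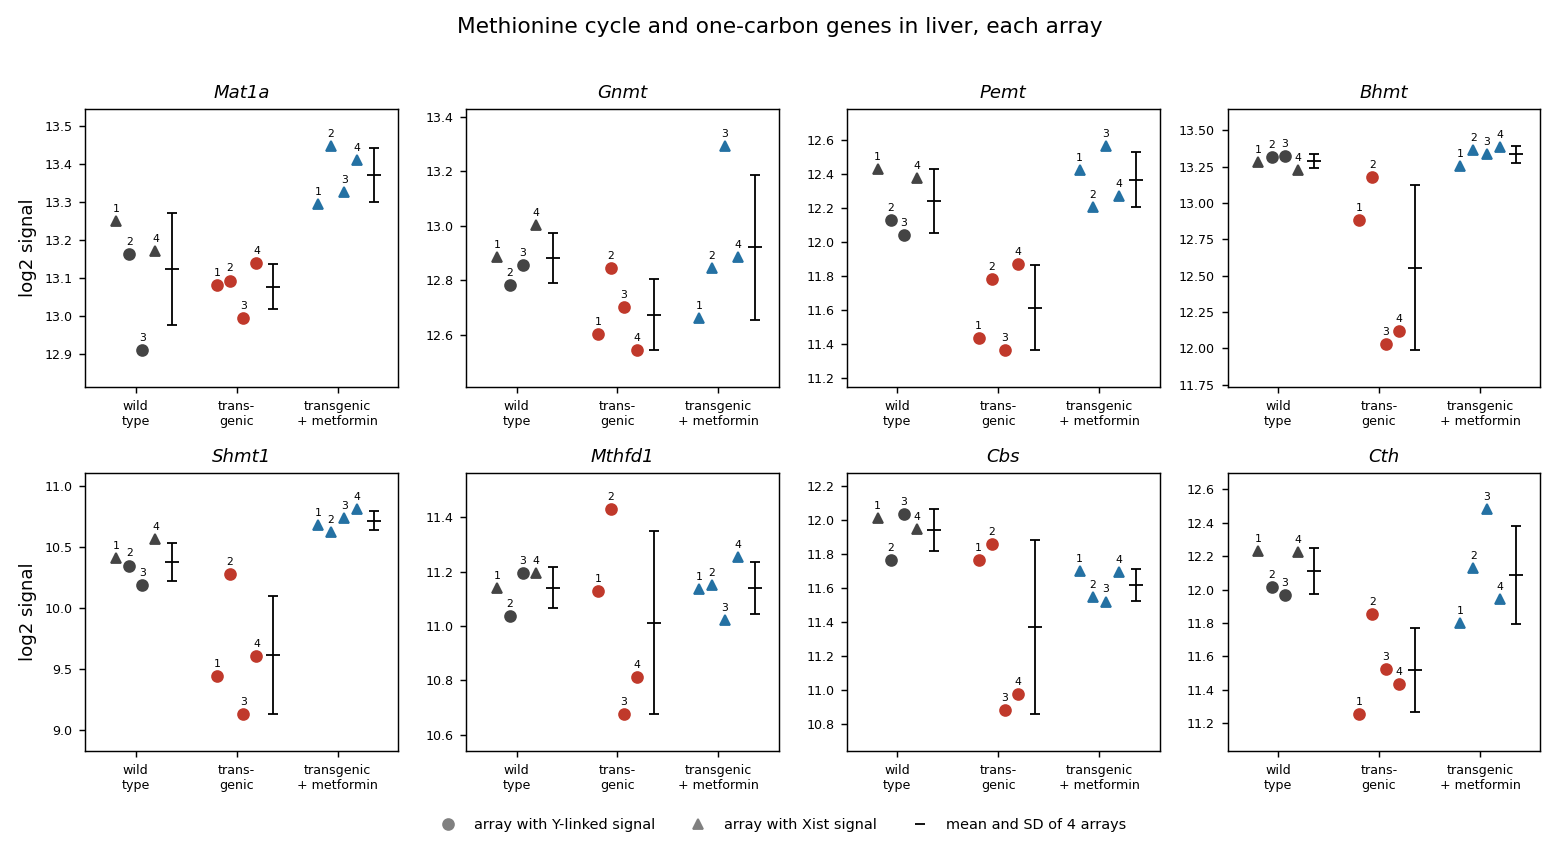
Log2 signal (vertical axis) of the 8 measured members in each of the 12 livers, by group, with 1 panel per gene. Circles are arrays with Y-linked signal, triangles arrays with Xist signal, and the bar is the mean with its SD (n = 4). The 4 transgenic Pemt values (11.36 to 11.87) lie below all 8 others, while those of Bhmt spread from 12.03 to 13.18.

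Pemt, which spends the methyl donor to turn phosphatidylethanolamine into phosphatidylcholine, gave the smallest p of the 8 measured members in the transgene comparison. It read 11.44, 11.78, 11.36 and 11.87 in transgenic livers, replicates 1 to 4. Wild type livers read 12.43, 12.13, 12.04 and 12.38, and metformin-treated livers 12.42, 12.21, 12.57 and 12.27. All 4 transgenic values were below the lowest of the other 8, and wild type and metformin-treated values overlapped. The difference from wild type was -0.63 ± 0.14 (limma estimate ± SE, adjusted p = 0.0141) and that of metformin-treated from untreated transgenic livers 0.75 ± 0.14 (adjusted p = 0.00283). It kept both calls when any 1 of the 12 arrays was left out.

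Mat1a, the synthase itself, differed between treated and untreated transgenic livers, but not detectably between untreated transgenic and wild type livers. Transgenic livers read 13.08, 13.09, 13.00 and 13.14, and wild type livers 13.25, 13.16, 12.91 and 13.17, so these groups overlapped. The difference was -0.05 ± 0.08 (adjusted p = 0.718), with a 95% interval from -0.22 to 0.13. With metformin the 4 values were 13.30, 13.45, 13.33 and 13.41, all above those of both other groups. They exceeded the untreated transgenic level by 0.29 ± 0.08 (adjusted p = 0.0221), and this call was lost without transgenic replicate 3, metformin-treated replicate 2 or metformin-treated replicate 4. Against wild type the difference was 0.25 ± 0.08, which did not pass (adjusted p = 0.138). All treated arrays had Xist signal and all untreated transgenic arrays Y-linked signal, so metformin and sex-chromosome signal cannot be told apart here. Within wild type, Mat1a was higher by 0.17 on the arrays with Xist signal. With the covariate, the difference of treated from untreated transgenic livers was 0.13 (adjusted p = 0.602).

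Gnmt, which consumes excess methyl donor in the liver, did not pass in any comparison. Its values were 12.60, 12.84, 12.70 and 12.55 in transgenic, 12.89, 12.78, 12.86 and 13.00 in wild type, and 12.66, 12.84, 13.29 and 12.89 in metformin-treated livers. All 3 groups overlapped. The transgenic difference from wild type was -0.21 (95% interval -0.47 to 0.06, adjusted p = 0.259) and the metformin difference 0.25 (interval -0.02 to 0.51, adjusted p = 0.162).

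Of the genes that return homocysteine to methionine, Bhmt had the widest spread among transgenic animals. Its 4 transgenic values were 12.88, 13.18, 12.03 and 12.12. In wild type it read 13.28, 13.32, 13.32 and 13.22, and with metformin 13.25, 13.36, 13.34 and 13.39. All transgenic values were below all others, but replicate 2 came close to them and replicates 3 and 4 lay about 1 log2 unit lower. The SD was 0.57 in transgenic livers, against 0.045 in wild type and 0.057 in metformin-treated livers. Bhmt differed from wild type by -0.73 ± 0.21 (adjusted p = 0.0374) and rose with metformin by 0.78 ± 0.21 (adjusted p = 0.0181). Since limma pools the spread of all groups, this p can be too small for a group that varies this much. Without transgenic replicate 3 or 4, any 1 wild type array, or metformin-treated replicate 1, 2 or 4, the first call was lost (range of differences -0.94 to -0.56), and the second was lost without transgenic replicate 3 or 4. Its other 2 rows gave -0.61 and -0.62 in the transgene comparison, and 0.62 and 0.57 with metformin.

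Shmt1, which moves the serine-derived carbon onto folate, changed most with metformin. Transgenic livers read 9.45, 10.28, 9.13 and 9.61. The wild type values of 10.41, 10.35, 10.19 and 10.57 overlapped them through transgenic replicate 2 alone. Metformin-treated livers, at 10.68, 10.63, 10.74 and 10.81, were all above both other groups. The transgenic difference from wild type was -0.76 ± 0.19 (adjusted p = 0.0226), and it was not called without transgenic replicate 1, 3 or 4 or wild type replicate 1, 2 or 4. With metformin the level rose by 1.10 ± 0.19 (adjusted p = 0.00222), called without any 1 array.

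Mthfd1, the trifunctional cytosolic folate enzyme, showed no such pattern. It read 11.13, 11.43, 10.68 and 10.81 in transgenic, 11.14, 11.04, 11.19 and 11.19 in wild type, and 11.14, 11.15, 11.02 and 11.25 in metformin-treated livers. The highest and the lowest of the 12 values were both from transgenic animals. Its differences were -0.13 (95% interval -0.43 to 0.17, adjusted p = 0.535) and 0.13 (interval -0.17 to 0.43, adjusted p = 0.528).

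Cth, which releases cysteine from cystathionine, read 11.25, 11.85, 11.52 and 11.44 in transgenic livers. Wild type livers read 12.23, 12.02, 11.97 and 12.23, all above the transgenic ones, and metformin-treated livers 11.80, 12.13, 12.48 and 11.94, which overlapped transgenic replicate 2. Cth was lower by 0.59 (-0.59 ± 0.15, adjusted p = 0.0270), a call lost without transgenic replicate 1, 3 or 4 or wild type replicate 1, 2 or 4, and rose with metformin by 0.57 ± 0.15 (adjusted p = 0.0190), lost without transgenic replicate 1.

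Cbs, the entry step, read 11.76, 11.86, 10.88 and 10.98 in transgenic, 12.01, 11.76, 12.03 and 11.95 in wild type, and 11.70, 11.55, 11.52 and 11.69 in metformin-treated livers. Transgenic replicates 1 and 2 lay near wild type and replicates 3 and 4 about 1 log2 unit lower. Replicates 3 and 4 were the lowest for Bhmt too, but there replicate 1 was not near wild type. Its transgenic difference was -0.57 ± 0.20 (adjusted p = 0.0720) and passed without transgenic replicate 2 (-0.73). With metformin it moved by 0.24 ± 0.20 (adjusted p = 0.391). Metformin-treated values were all below wild type ones, with a difference of -0.32 ± 0.20 that did not pass (adjusted p = 0.452).

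**Figure D2:**
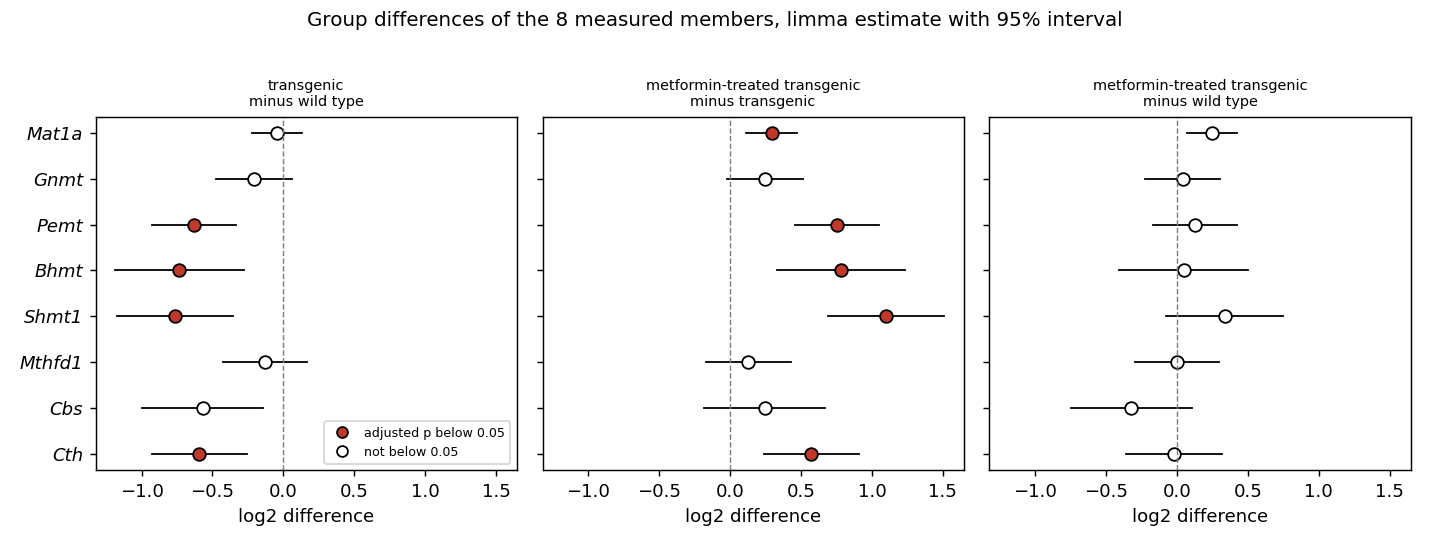
Log2 differences between groups (horizontal axis) with 95% intervals from limma, for the 8 members in the 3 comparisons. Every transgenic estimate lies below 0 against wild type (that of Mat1a, -0.05, turned to 0.021 after median centring), every metformin estimate above 0 against untreated transgenic livers, and 0 of 8 members passed between metformin-treated and wild type livers.

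Against wild type, metformin-treated transgenic livers had 0 of 8 members called by limma, where 2.43% of all tested genes were called. At an unadjusted p below 0.05, 1 member, Mat1a, was counted, and array weights called 2. The intervals remained wide. That of Bhmt ran from -0.41 to 0.50, that of Pemt from -0.17 to 0.42 and that of Cth from -0.36 to 0.31. Differences within those bounds were therefore not excluded at 4 animals per group. By groups that did not overlap, Mat1a and Shmt1 lay above wild type, as did 6.21% of all genes, and Cbs below, as did 8.23%. Shmt1 was higher by 0.34 (interval -0.08 to 0.75, adjusted p = 0.411). Among the 3 groups at once, the moderated F test called Pemt and Shmt1 (adjusted p = 0.00537 for both), Cth (0.0223), Bhmt (0.0266) and Mat1a (0.0386), 5 of 8, against 24.2% of all genes. That count was 2 without transgenic replicate 3 or 4 and 3 without transgenic replicate 1 or metformin-treated replicate 4.

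Several features that the rule did not use recurred among the members, but how often they occur over all genes was not counted. The transgenic mean was the lowest of the 3 groups for 8 of 8 (for Mat1a this turned after median centring), and the SD was larger in transgenic than in wild type livers for 7 of 8. Against metformin-treated livers the transgenic SD was larger for 5 of 8, and smaller for Gnmt, Mat1a and Cth. Transgenic replicate 2 was the highest transgenic array for 6 of 8 members and replicate 3 the lowest for 6 of 8, a description of 4 animals with no test. Over all tested genes, the mean r with the own group was 0.968 to 0.984 for transgenic and 0.987 to 0.989 for wild type arrays. For metformin-treated arrays it was 0.974 for replicate 3 and 0.987 to 0.989 for the others. Transgenic replicate 2 was nearer to wild type arrays (0.984) than to its own group (0.968), so its distance from its own group was not particular to the members. Bhmt, Cbs and Mthfd1 shared the order with replicates 3 and 4 low. By the count of groups that did not overlap, 3 members (Bhmt, Cth and Pemt) were lower in transgenic than wild type livers, where 11% of all genes were, and 4 (Mat1a, Bhmt, Pemt and Shmt1) were higher with metformin, where 9.93% were.

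Sex-chromosome signal moved with these genes as well. Within wild type, 7 of 8 members were higher in the 2 arrays with Xist signal than in the 2 with Y-linked signal, by 0.32 for Pemt, 0.24 for Cth and 0.22 for Shmt1, whereas Bhmt differed by -0.07. With the covariate, 0 of 8 members passed in the transgene comparison. The estimates were -0.78 for Bhmt (adjusted p = 0.0971), -0.69 for Shmt1 (0.0994), -0.51 for Pemt (0.0801) and -0.51 for Cth (0.121). With metformin 0 of 8 passed too, with estimates of 0.95 for Shmt1 (adjusted p = 0.147), 0.87 for Bhmt (0.206), 0.51 for Pemt (0.215), 0.41 for Cth (0.390) and 0.13 for Mat1a (0.602). The Mat1a estimate was 0.29 without the covariate. Leaving out transgenic replicate 2 as well, 5 members were called lower (Bhmt, Cbs, Cth, Pemt and Shmt1) and Bhmt (1.05, adjusted p = 0.0299) and Shmt1 (1.14, adjusted p = 0.00455) higher with metformin. On the arrays with Y-linked signal alone, 4 transgenic and 2 wild type, the differences were -0.77 for Bhmt, -0.65 for Shmt1, -0.47 for Pemt and -0.47 for Cth, and none of these passed.

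The rest of the pathway was described through 7 lists of 75 symbols, of which 62 genes were tested. Of these, 15 fell and 4 rose in transgenic livers (median -0.13), and 20 rose and 4 fell with metformin (median 0.12). Over all tested genes 6.15% fell and 7.97% rose in transgenic livers, and 10.6% rose and 14.1% fell with metformin. Over all genes the calls were 56.5% higher in the transgene comparison (74.5% after centring each array on its median) and 42.8% higher with metformin (30% after centring). Between metformin-treated and wild type livers limma called 0 of 62, with 7 at an unadjusted p below 0.05. With the covariate 6 of 62 were called in the transgene comparison and 1 with metformin, and the calls of 7 of the 19 and 15 of the 24 held without each of the 12 arrays. Those 7 were Gamt, Bhmt2, Mmachc, Chdh, Aldh1l1, Slc19a1 and Suox. The 15 with metformin were those 7 and Adk, Aldh7a1, Sardh, Shmt2, Mthfd2, Sqor, Pcyt2 and Adi1. The 19 became 8 without transgenic replicate 3, 9 to 12 without transgenic replicate 1 or 4 or wild type replicate 1, 2 or 4, and 32 without transgenic replicate 2, and the 24 became 15 without transgenic replicate 3.

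**Figure D3:**
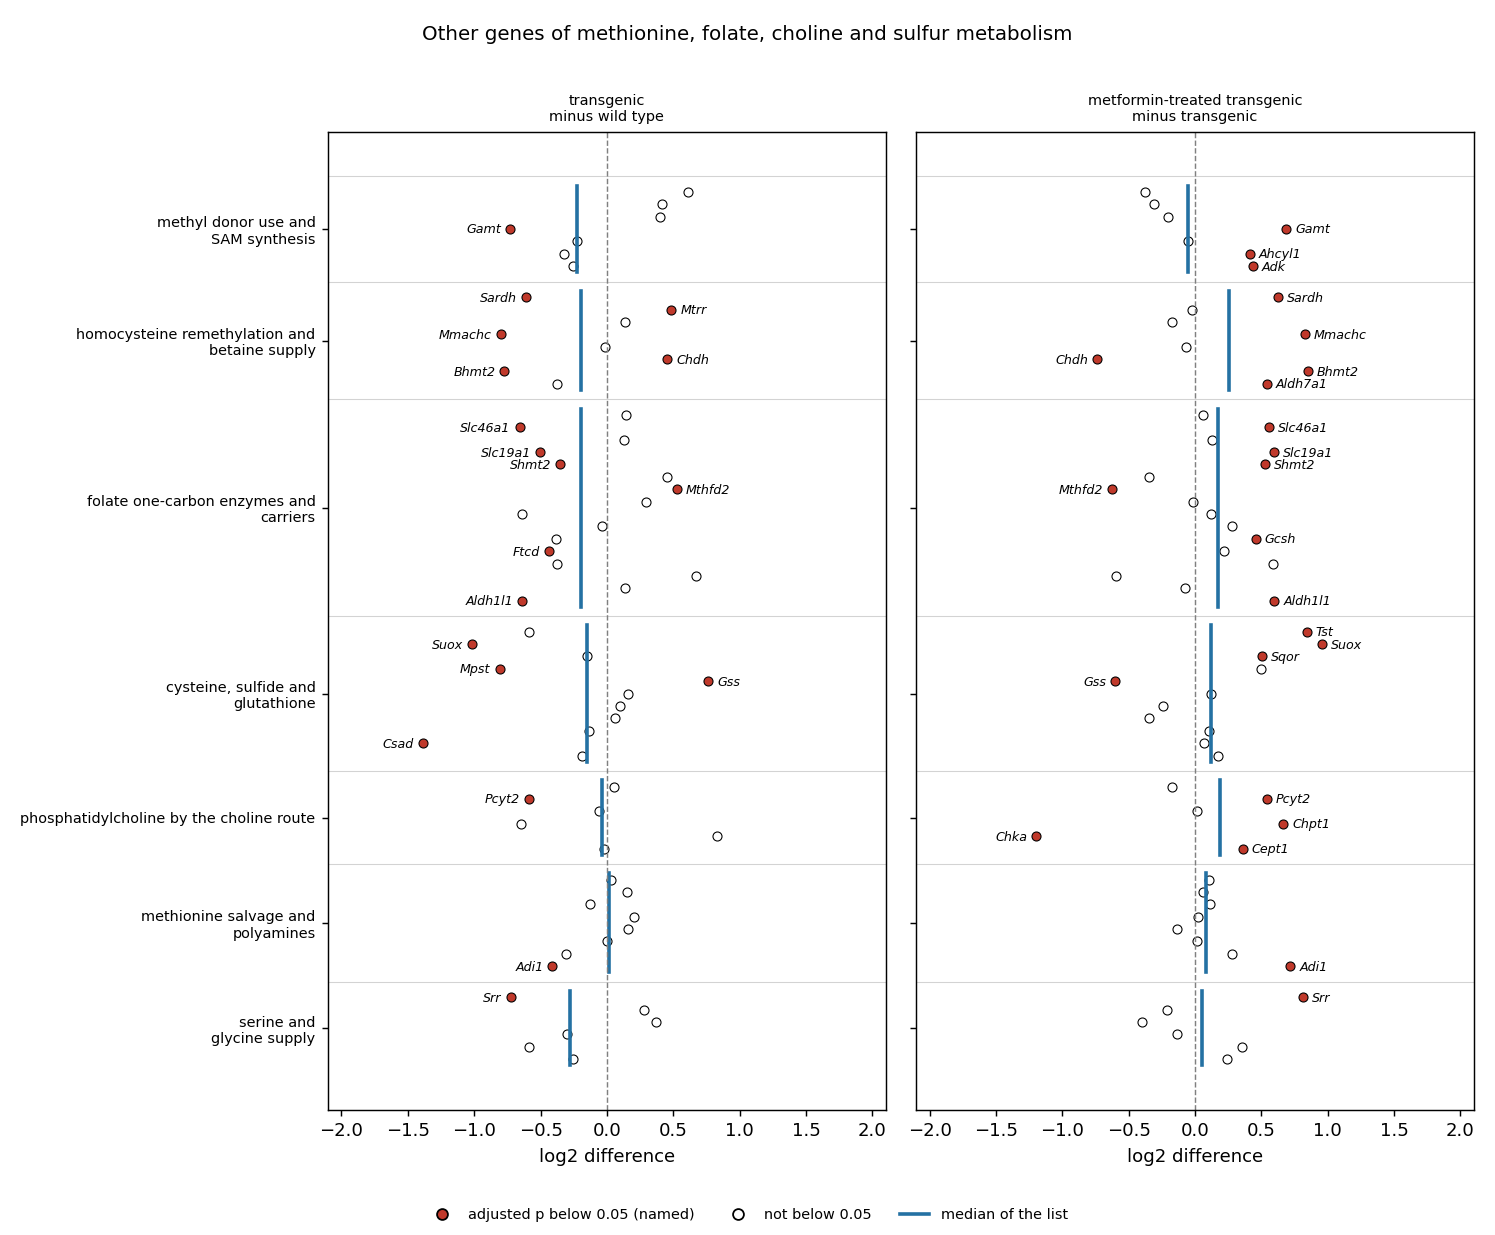
Log2 differences of the tested genes of the 7 other lists, with 1 gene per line, for transgenic against wild type and metformin-treated against untreated transgenic livers. Filled points passed limma at an adjusted p of 0.05: 19 and 24 of 62.

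Homocysteine remethylation and betaine supply held Mmachc, the gene with the smallest p of these lists in both comparisons. In transgenic livers 3 of 8 genes fell and 2 rose, and with metformin 4 rose and 1 fell. Mmachc, which processes the cobalamin that methionine synthase needs, read 8.92, 8.97, 8.69 and 9.0 in transgenic livers. Wild type livers read 9.75, 9.89, 9.55 and 9.59, and metformin-treated livers 9.70, 9.72, 9.72 and 9.76. All 4 transgenic values were below the other 8. The differences were -0.80 ± 0.09 (adjusted p = 0.00101) and 0.83 ± 0.09 (adjusted p = 3.10e-04), and it was the single gene of the 62 called in both comparisons with the covariate (adjusted p = 0.00794 and 0.0455).

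Chdh, the choline dehydrogenase that starts betaine synthesis, ran the opposite way from Bhmt, the enzyme that uses betaine. It read 10.48, 10.32, 10.32 and 10.44 in transgenic, 9.93, 9.94, 9.98 and 9.88 in wild type, and 9.88, 9.63, 9.47 and 9.63 in metformin-treated livers. The transgenic values were above all others, by 0.45 ± 0.09 over wild type (adjusted p = 0.00857), and fell with metformin by 0.74 (-0.74 ± 0.09, adjusted p = 3.87e-04). The paralog Bhmt2 followed Bhmt. Transgenic livers read 11.28, 11.24, 10.46 and 10.82, below all wild type (11.53 to 11.86) and metformin-treated (11.64 to 11.92) values, with differences of -0.77 ± 0.16 (adjusted p = 0.0123) and 0.85 ± 0.16 (adjusted p = 0.00351). Also in this list, sarcosine dehydrogenase (Sardh) stood at -0.61 and 0.62, the methionine synthase reductase Mtrr rose in transgenic livers by 0.49 and Aldh7a1, a betaine aldehyde dehydrogenase, rose with metformin by 0.54. The Mtrr call was lost without any 1 of 7 arrays, and the first Sardh call without any 1 of 5.

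**Figure D4:**
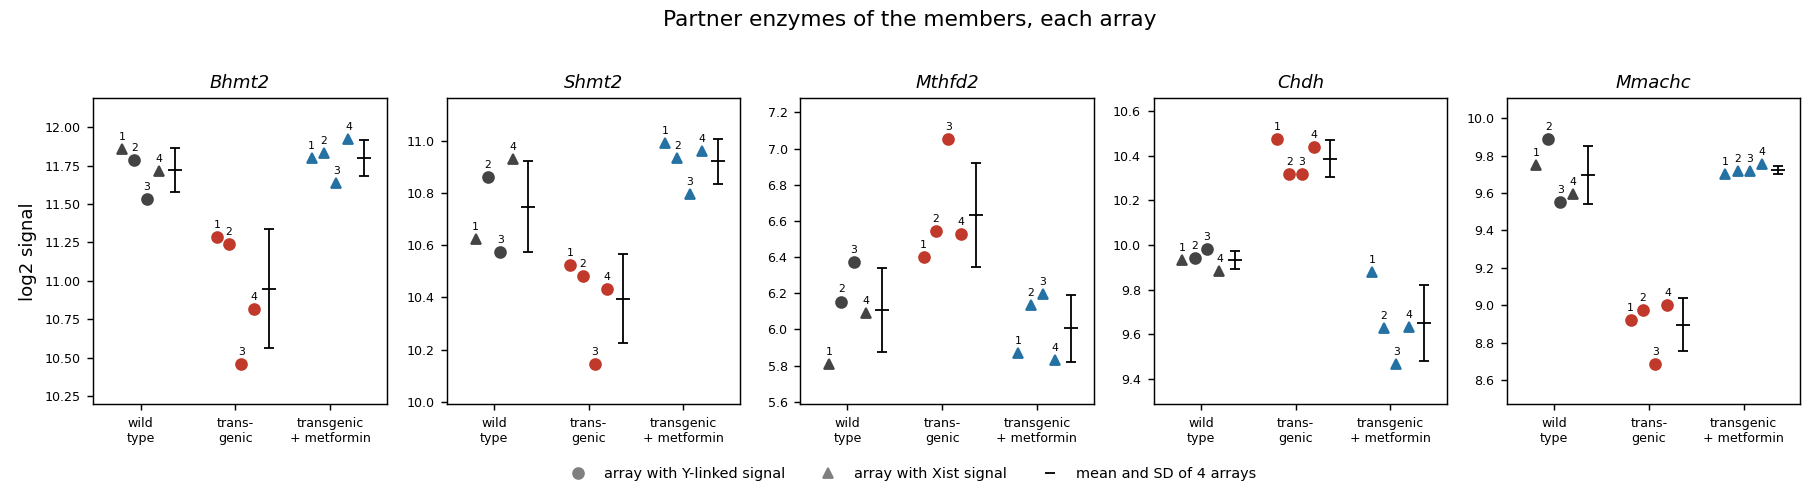
Log2 signal (vertical axis) of Bhmt2, Shmt2, Mthfd2, Chdh and Mmachc in each liver, by group, with bars for the mean and SD (n = 4). Circles are arrays with Y-linked signal and triangles arrays with Xist signal. Chdh and Mthfd2 are highest in transgenic livers, the other three lowest.

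Of the 16 tested folate genes, 5 fell and 1 rose in transgenic livers, and 5 rose and 1 fell with metformin. Aldh1l1, the cytosolic enzyme that oxidises formyl-folate, stood at -0.64 ± 0.12 (adjusted p = 0.00738) and 0.60 ± 0.12 (adjusted p = 0.00452), and the reduced folate carrier Slc19a1 at -0.50 ± 0.11 and 0.60 ± 0.11. The proton-coupled folate transporter Slc46a1 was at -0.66 and 0.55, calls lost without any 1 of 8 and of 11 arrays, respectively. The mitochondrial paralogs of Shmt1 and Mthfd1 went separate ways. Shmt2 fell by 0.35 (-0.35 ± 0.11, adjusted p = 0.0457) and rose with metformin by 0.53 ± 0.11 (adjusted p = 0.00485). Mthfd2, at 6.40 to 7.05 in transgenic, 5.81 to 6.37 in wild type and 5.83 to 6.20 in metformin-treated livers, was higher in transgenic livers by 0.53 ± 0.16 (adjusted p = 0.0435) and fell with metformin by 0.63 (-0.63 ± 0.16, adjusted p = 0.0131). The first calls of Shmt2 and Mthfd2 were lost without any 1 of 9 and of 8 arrays, respectively. Mthfd1l (0.30 and -0.01) and Mthfd2l (0.45 and -0.35) did not pass in either comparison.

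In the list of methyl donor use, 1 of 7 genes fell and 0 rose in transgenic livers, and with metformin 3 rose and 0 fell. With 1 call in 7 genes, the transgene share cannot be told from the 6.15% called lower over all genes. Gamt, the creatine-forming methyltransferase, stood at -0.73 ± 0.14 (adjusted p = 0.00959) and 0.69 ± 0.14 (adjusted p = 0.00566). Adk, which removes the adenosine that the Ahcy step releases, rose with metformin by 0.43, and so did Ahcyl1, a non-catalytic relative of Ahcy, by 0.41. The Ahcyl1 call was lost without any 1 of 6 arrays. Ahcyl2 did not pass (-0.23 and -0.06).

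Downstream of Cth, in the list of cysteine, sulfide and glutathione, 3 of 11 genes fell and 1 rose in transgenic livers, and with metformin 3 rose and 1 fell. The sulfite oxidase gene Suox fell by 1.01 (-1.01 ± 0.18, adjusted p = 0.00628), and rose with metformin by 0.96 ± 0.18 (adjusted p = 0.00346). Mpst, a sulfurtransferase, was at -0.81 in the transgene comparison, a call lost without any 1 of 5 arrays. Csad, which makes hypotaurine on the way to taurine and was named after its values were seen, had the lowest transgenic estimate of the 62 genes, -1.39 ± 0.39 (adjusted p = 0.0341), a call lost without transgenic replicate 1, 3 or 4 or wild type replicate 1, 2 or 3. It read 7.49 to 9.39 in transgenic, 8.86 to 10.51 in wild type and 7.99 to 8.48 in metformin-treated livers. With metformin it did not pass (0.07, adjusted p = 0.917), and its metformin-treated values were all below wild type ones (-1.32 ± 0.39, adjusted p = 0.0937, not called). Within wild type, Csad averaged 9.19 on the arrays with Xist signal and 10.07 on those with Y-linked signal. With the covariate, its metformin difference was 0.97 (adjusted p = 0.353) and that of metformin-treated from wild type livers -0.86 (adjusted p = 0.452). Leaving out transgenic replicate 2 as well, the metformin difference was 1.29 (adjusted p = 0.0431). The glutathione synthetase gene Gss moved the other way, at 0.76 (adjusted p = 0.0213) and -0.60 (adjusted p = 0.0334). Its calls were lost without any 1 of 4 and of 6 arrays, respectively. Sqor and Tst, both of sulfide oxidation, rose with metformin by 0.50 and 0.84. The Tst call was lost without any 1 of 4 arrays.

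Genes of phosphatidylcholine and phosphatidylethanolamine synthesis beside Pemt gave 1 of 6 lower in transgenic livers, Pcyt2 (-0.59 ± 0.13, adjusted p = 0.0171), which makes the activated ethanolamine for the Pemt substrate. With metformin, 3 of 6 rose, among them Pcyt2 (0.54) and Cept1 (0.36), and choline kinase Chka fell by 1.20 (-1.20 ± 0.32, adjusted p = 0.0176). In methionine salvage and polyamines, 1 of 8 was called in each comparison, the dioxygenase gene Adi1 (-0.41 and 0.72). In serine and glycine supply, 1 of 6 was called in each, serine racemase Srr (-0.73 and 0.81), lost without any 1 of 10 and of 2 arrays, respectively. With 1 call in lists this short, neither share can be told from the shares called over all genes. Those were 6.15% lower and 7.97% higher in transgenic livers, and 10.6% higher and 14.1% lower with metformin. The same holds for Pcyt2 as the 1 of 6 called in the transgene comparison.

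For the 5 members called among the groups, the genes with the most similar profile were found by the root mean square difference of centred log2 values over the 12 arrays. For Bhmt these were Lbp (0.12) and Apof (0.13), which encode the lipopolysaccharide-binding protein and an apolipoprotein, where the Bhmt values themselves varied by 0.46 about their mean. For Shmt1 they were Pipox (0.11), a peroxisomal sarcosine and pipecolate oxidase, and Ddo (0.14), D-aspartate oxidase, against 0.53. For Pemt they were Ube2e2 (0.082) and Gamt (0.12), against 0.37, for Cth Dcxr and Smim27 (0.11 each), against 0.34, and for Mat1a Spin2c (0.076) and Glyr1 (0.078), against 0.16.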

How the data were processed

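Groups and replicate numbers came from the sample titles, which call the animals biological replicates. The authors deposited 1 table of log2 signals (35556 rows, 12 arrays), made with Affymetrix Expression Console, per the submitters' processing notes; for its version, summarisation and normalization the sources used here say nothing. Array medians lay between 5.69 and 5.85, and no normalization was added in the main fit. The medians of the transgenic arrays (5.71 to 5.74) were all below those of the wild type arrays (5.76 to 5.83). Median centring, run as an alternative, moved the median transgenic difference of all genes from -0.01 to 0.05. The platform annotation gave 21789 rows with 1 gene, 1621 with several and 12146 unnamed here. Rows with several genes or none were left out, the brightest row stood for each gene, and the dimmest 25% of 19938 genes were left out, which kept 14953 and all 8 measured members. How far a probe set lies above background is not known from the table, and the number of arrays limits the precision.

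Groups were compared with limma (version 3.58.1, run under R 4.3.3) in 1 two-sided fit of all 12 arrays without covariate, with Benjamini-Hochberg adjustment over all genes of a comparison and a threshold of 0.05. "Called", "rose" and "fell" mean past that threshold. Values after ± are SE unless called SD. The script was tested on simulated data. Named genes are all members and their paralogs, per list and comparison up to 3 called genes with the smallest p, and the 2 nearest genes of each member called by the F test; Sardh, Mtrr, Aldh7a1, Csad and the cell markers were named after their values were seen. Members and lists were chosen with earlier results of these data known. Alternatives were the filter on dim genes, the rows of a gene, normalization, the replicate number as a block, moderation settings, array weights, fewer arrays, thresholds, each array left out and a sex covariate (Xist minus the mean Y-linked signal of an array). Array weights per group and the AAACA search were added after the data were seen.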

Additional observations from a re-analysis of the deposited data

How the results depend on the processing

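Member counts (transgenic against wild type, metformin-treated against untreated transgenic, metformin-treated against wild type, and the F test: 4, 5, 0 and 5) stayed within 1.5 times with no or a 50% filter on dim genes, the mean of all rows, quantile normalization, trend and robust eBayes, and weights per group. Leaving out each array gave 1 to 5, 3 to 5, 0 to 0 and 2 to 6 members, 764 to 4004, 2419 to 4828, 70 to 775 and 1998 to 5119 of all genes (2111, 3695, 364 and 3613 with all arrays), and 8 to 32, 15 to 32, 0 to 3 and 13 to 33 of the other pathway genes (19, 24, 0 and 24). Median centring left 2 members in the transgene comparison. Trend and robust eBayes called 227 genes between metformin-treated and wild type livers. Array weights called 4818 genes and 34 pathway genes, then 8 members and 6428 genes, then 2 members, 3057 genes and 12 pathway genes, and by the F test 8, 7559 and 40. With only the 8 arrays compared, 2 members passed in the transgene comparison, 3 members and 2354 genes with metformin, and 3 pathway genes between metformin-treated and wild type livers. The sex covariate gave 0 members, 650 genes and 6 pathway genes in the transgene comparison, 0, 82 and 1 with metformin, 14 genes between metformin-treated and wild type, and 0, 340 and 1 by the F test. Without transgenic replicate 2 as well, 2 members, 1845 genes and 13 pathway genes were called with metformin, 29 genes between metformin-treated and wild type, and 2 members by the F test. Arrays with Y-linked signal alone gave 0 members, 9 genes and 0 pathway genes in the transgene comparison, with fewer arrays, and arrays with Xist signal alone 1 gene between metformin-treated and wild type. A threshold of 0.01 gave 0, 422 and 5, then 2, 1653 and 12, then 28 genes, and by the F test 2, 1244 and 9. A threshold of 0.10 gave 3487 genes in the transgene comparison, and 837 genes and 3 pathway genes between metformin-treated and wild type. Where no construction is named, the cause was not tested.

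The replicate number as a block gave 4, 5, 0 and 5 members and changed no member's call; it called 135 genes between metformin-treated and wild type livers. Same-numbered arrays correlated above 0.1 in 4 of 12 pairs (range -0.18 to 0.24), and 1 of 12 arrays correlated best with its own number, so the numbers were not taken to pair the animals.

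Signs turned for uncalled differences near 0. Mat1a in the transgene comparison became 0.021 with median centring, 0.035 with the covariate, 0.028 without transgenic replicate 2 as well, and 0.041 on arrays with Y-linked signal. Against wild type with metformin, Mthfd1 became 0.0049 with median centring and 0.071 with array weights, Gnmt -0.031 with array weights, 0 with the covariate without transgenic replicate 2, and -0.024 on arrays with Xist signal, and Pemt -0.0028 and -0.035 in those last settings. With each array left out, Cth ranged from -0.15 to 0.074, Mthfd1 from -0.038 to 0.040 and Gnmt from -0.085 to 0.13.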
